A study of Homo sapiens with 4 samples.

Results

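The genes described here encode proteins that move mRNAs, protect or destabilize them, or read the m6A mark on them. They are the 3 IGF2BP genes, the 2 Staufen genes, the 3 YTHDF genes, ELAVL1 and LIN28B. Members were taken as every probe set, meaning every group of array oligonucleotides summarized to 1 value, whose only gene symbol in the platform annotation was 1 of these 10 symbols. This gave 24 of the array's 54675 probe sets, for 9 of the 19775 genes that have a probe set of their own, and YTHDF2, for which the rule found none, was not analysed here. The immunoprecipitate (IP) group was RNA recovered with an anti-FLAG M2 antibody from FlagHA-tagged FMRP, with beads washed at 300 mM KCl (2 samples). The lysate group was total RNA set aside from the clarified lysate before the IP (2 samples). All 4 samples came from a stable FlpIn T-Rex HEK293 line, derived from human embryonic kidney cells, whose transgene doxycycline switches on, here at 1 µg/ml for 16 h. Each sample was labelled from 2 µg of RNA and hybridized to its own Affymetrix Human Genome U133 Plus 2.0 array. FMRP binds RNA, and its absence causes fragile X syndrome; the comparison asks which mRNAs were over- or under-represented with it. All values are therefore levels of the members' mRNAs and say nothing about the proteins.

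As background, the IGF2BP proteins bind and stabilize mRNAs and include the vertebrate zipcode-binding protein that localizes beta-actin mRNA. Staufen proteins bind double-stranded RNA. Staufen was found in Drosophila, where it localizes mRNAs in the egg and embryo, and mammalian STAU1 can direct mRNAs to decay together with UPF1. The YTHDF proteins are cytoplasmic readers of N6-methyladenosine (m6A), a methyl mark on mRNA. ELAVL1, also called HuR, binds AU-rich elements and stabilizes mRNAs that carry them. LIN28B blocks the maturation of let-7 microRNAs and also binds mRNAs.

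Pearson's r across 27281 probe sets was 0.990 between the IP arrays, 0.992 between the lysate arrays, and 0.875 to 0.904 between an IP and a lysate array; probe sets are not independent replicates. With 2 arrays a group, an exact permutation test of a single value cannot go below p = 0.333 (two-sided), so the tests below are limma's moderated test across all probe sets, with Benjamini-Hochberg adjustment and a threshold of 0.05. No label states that the replicates are separate cultures, so p-values measure the spread between these samples, which may be technical. No mock IP is among these samples. The mRNA of FMR1, the gene of the tagged protein, stood at 9.28 and 9.03 on the IP arrays, against 9.64 and 9.51 on the lysate arrays (log2 signal, 215245_x_at, change -0.42), and at 8.16 and 7.90 against 8.80 and 8.63 on its second probe set (203689_s_at, change -0.69). Both passed as lower (adjusted p = 0.0363 and 0.00548), the first not without IP replicate 2 (-0.29), lysate replicate 1 (-0.35) or lysate replicate 2 (-0.49); whether they read the transgene was not analysed here. All 6 embryonic kidney markers lay above the array medians of 4.67 to 4.71 on the 4 arrays, LHX1 only just, at 4.81 to 4.99. Their summed log2 signal was 44.5 and 44.8 on the IP arrays, against 43.4 and 43.5 on the lysate arrays, and CDH2 was called higher (1.03). Of 9 markers of other cell types, 4 lay above the array medians on the 4 arrays as well. That list's summed log2 signal was 43.2 and 44.3 on the IP arrays, against 42.2 and 40.7 on the lysate arrays, with GFAP (0.56) and PECAM1 (0.53) called higher. The markers PTPRC, CD3E, ALB and INS lay below the filter on low signals, and the part of these markers in the results was not tested.

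Of the 24 probe sets, 21 passed that filter, a mean log2 signal over the 4 arrays of at least 4.70, and were tested. In the IP 4 were higher and 3 lower, and 14 did not pass. The 7 called are 33.3% of those tested, where 59.5% of all 27281 tested probe sets were called, 31.5% higher and 28.0% lower. The members' median change (IP minus lysate, log2) was 0.03, beside 0.05 over all tested probe sets. Their median absolute change was 0.26, beside 0.52, and 1 of the 21 was called with a change of at least 2-fold, as were 24.3% of all tested. For 16 of the 21 the groups did not overlap, with both IP arrays above both lysate arrays in 7 and below them in 9, beside 80.2% of all tested probe sets. With each gene taken by its highest-mean probe set, YTHDF1 and IGF2BP2 were higher, LIN28B was lower and 6 genes did not pass, and of all 13157 genes taken that way 33.8% were higher and 27.9% lower.

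**Figure D1:**
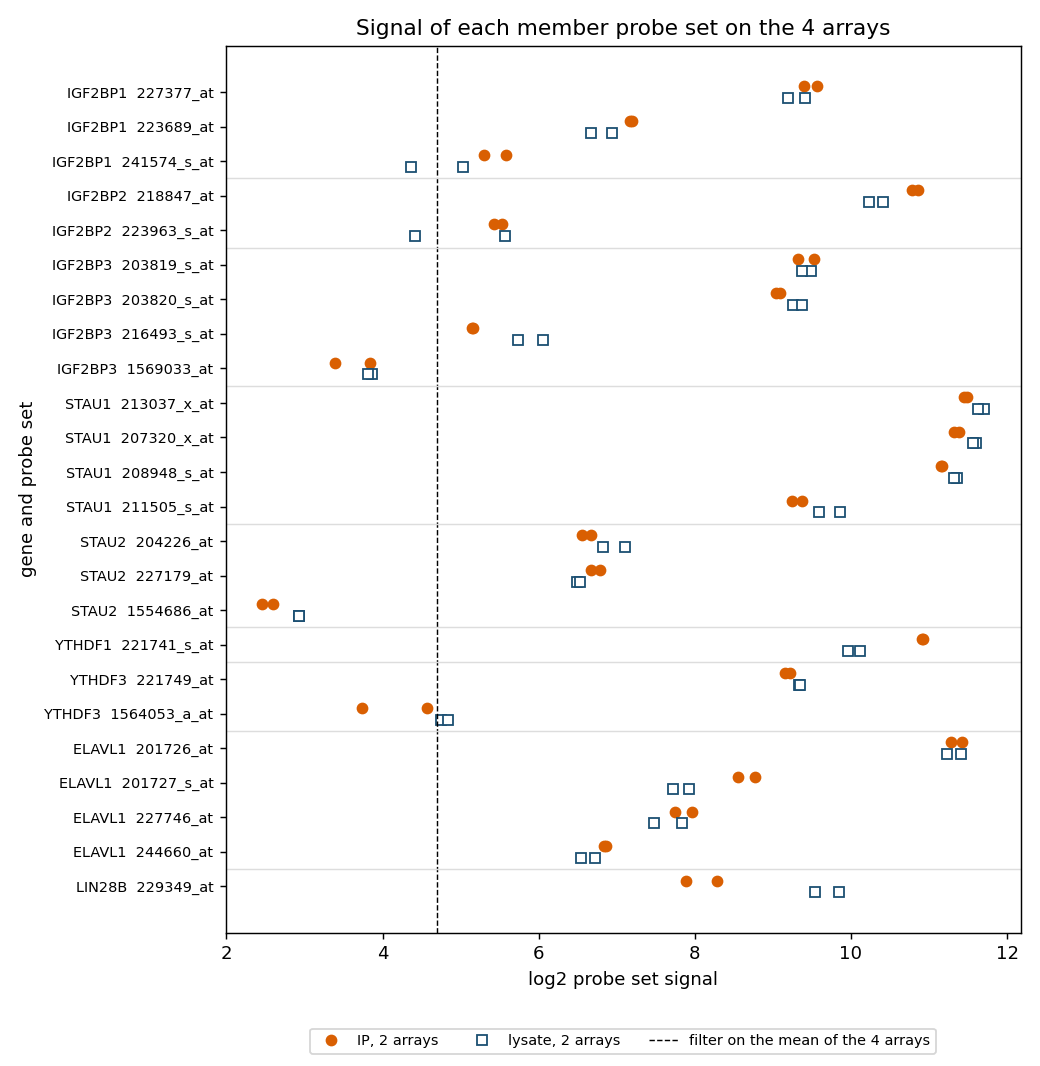
Log2 signal (horizontal axis) of each of the 24 member probe sets on the 2 IP arrays (filled circles) and the 2 lysate arrays (open squares), with the filter at 4.70 as a dashed line. LIN28B lies at 8.28 and 7.89 on the IP arrays and at 9.85 and 9.54 on the lysate arrays. The STAU1 row 211505_s_at, at 9.24 to 9.86, lies to the left of the other STAU1 rows.

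LIN28B had the largest change of all 21 tested member probe sets. Its only probe set, 229349_at, had a log2 signal of 8.28 and 7.89 on the IP arrays, against 9.85 and 9.54 on the lysate arrays. Both IP arrays lay more than 1 log2 unit below both lysate arrays. The signal fell by 1.61 on the log2 scale, to 8.08 ± 0.28 in the IP against 9.70 ± 0.22 in the lysate (mean ± SD, n = 2 each; SE of the change 0.18, limma adjusted p = 0.000335). This is a signal 3.06-fold higher in the lysate, and 4.52% of all tested probe sets had a change as low or lower. The values are relative to the other RNAs on each array. Without each array in turn the change lay between -1.81 and -1.42 and passed each time. With an unmoderated variance, which rests on 2 residual degrees of freedom, it did not pass (adjusted p = 0.0645). LIN28B has no further probe set by the rule with which to compare it.

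Among the m6A readers, YTHDF1 mRNA was higher in the IP and YTHDF3 mRNA did not pass. YTHDF1, a reader known for promoting translation of m6A-marked mRNAs, stood at 10.92 and 10.91 on the IP arrays, against 9.97 and 10.11 on the lysate arrays (log2 signal, probe set 221741_s_at). The groups did not overlap and the signal was 1.84-fold higher in the IP (change 0.88, 95% interval 0.59 to 1.17, adjusted p = 0.000882). YTHDF1 has no further probe set by the rule with which to compare it. YTHDF3 stood at 9.22 and 9.16 on the IP arrays, against 9.33 and 9.35 on the lysate arrays (221749_at), where both IP arrays lay just below both lysate arrays. Its change was -0.15, with an interval of -0.43 to 0.13 (adjusted p = 0.299). A second YTHDF3 probe set, 1564053_a_at, was under the filter, at 4.57 and 3.74 on the IP arrays against 4.75 and 4.84 on the lysate arrays, and was not tested. The difference between the changes of YTHDF1 and YTHDF3 was itself tested, in a fit of log2 ratios between probe sets. It was 1.03 (95% interval 0.70 to 1.36, adjusted p = 0.00470 over 10364 ratios), and it passed without each array in turn.

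Of the 3 IGF2BP genes, IGF2BP2 was higher in the IP, at 10.86 and 10.78 on the IP arrays against 10.41 and 10.23 on the lysate arrays (log2 signal, 218847_at). The change was 0.51, or 1.42-fold (95% interval 0.20 to 0.81, adjusted p = 0.0126), and did not pass without lysate replicate 2 (0.41). The second IGF2BP2 probe set, 223963_s_at, stood at 5.43 and 5.53 on the IP arrays, against 5.57 and 4.42 on the lysate arrays. There the lysate arrays lay on both sides of the IP arrays, the change of 0.48 had an interval of -0.32 to 1.28, and it passed only without lysate replicate 1 (1.06).

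IGF2BP1, the mammalian zipcode-binding protein, had 3 probe sets, all with positive changes on the deposited scale. The probe set with the highest signal, 227377_at, stood at 9.40 and 9.56 on the IP arrays, against 9.19 and 9.41 on the lysate arrays. Its groups overlapped, and the change of 0.18 did not pass (interval -0.15 to 0.51, adjusted p = 0.295). Probe set 223689_at, at 7.17 and 7.19 on the IP arrays against 6.67 and 6.94 on the lysate arrays, changed by 0.38 and narrowly missed the threshold (adjusted p = 0.0511). Probe set 241574_s_at was higher in the IP, at 5.29 and 5.58 against 4.37 and 5.03 in the lysate, with a change of 0.73 (adjusted p = 0.0278). Its signals lie close to the array medians, and it did not pass without IP replicate 2 (0.59) or without lysate replicate 1 (0.40).

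IGF2BP3, the family member known mostly from embryonic tissue and tumours, had changes at or below 0. Probe set 203819_s_at stood at 9.52 and 9.32 on the IP arrays, against 9.49 and 9.38 on the lysate arrays, with overlapping groups and a change of -0.01 (interval -0.32 to 0.31). Probe set 203820_s_at, at 9.09 and 9.04 on the IP arrays against 9.26 and 9.38 on the lysate arrays, changed by -0.26 and did not pass (adjusted p = 0.110). Probe set 216493_s_at was lower in the IP, at 5.16 and 5.14 against 5.74 and 6.05 in the lysate, with a change of -0.74 (interval -1.09 to -0.40, adjusted p = 0.00385). Its IP signals lie close to the array medians. The fourth, 1569033_at, lay under the filter at 3.84 and 3.40 on the IP arrays and 3.87 and 3.82 on the lysate arrays. Between the genes' highest-mean probe sets, the changes of IGF2BP2 and IGF2BP3 differed by 0.51 (interval 0.18 to 0.84, adjusted p = 0.0320). That call was lost without any of the 4 arrays, at 0.45 to 0.57. IGF2BP1 minus IGF2BP2 was -0.32 (interval -0.79 to 0.14) and IGF2BP1 minus IGF2BP3 was 0.19 (interval -0.28 to 0.66), and neither passed.

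**Figure D2:**
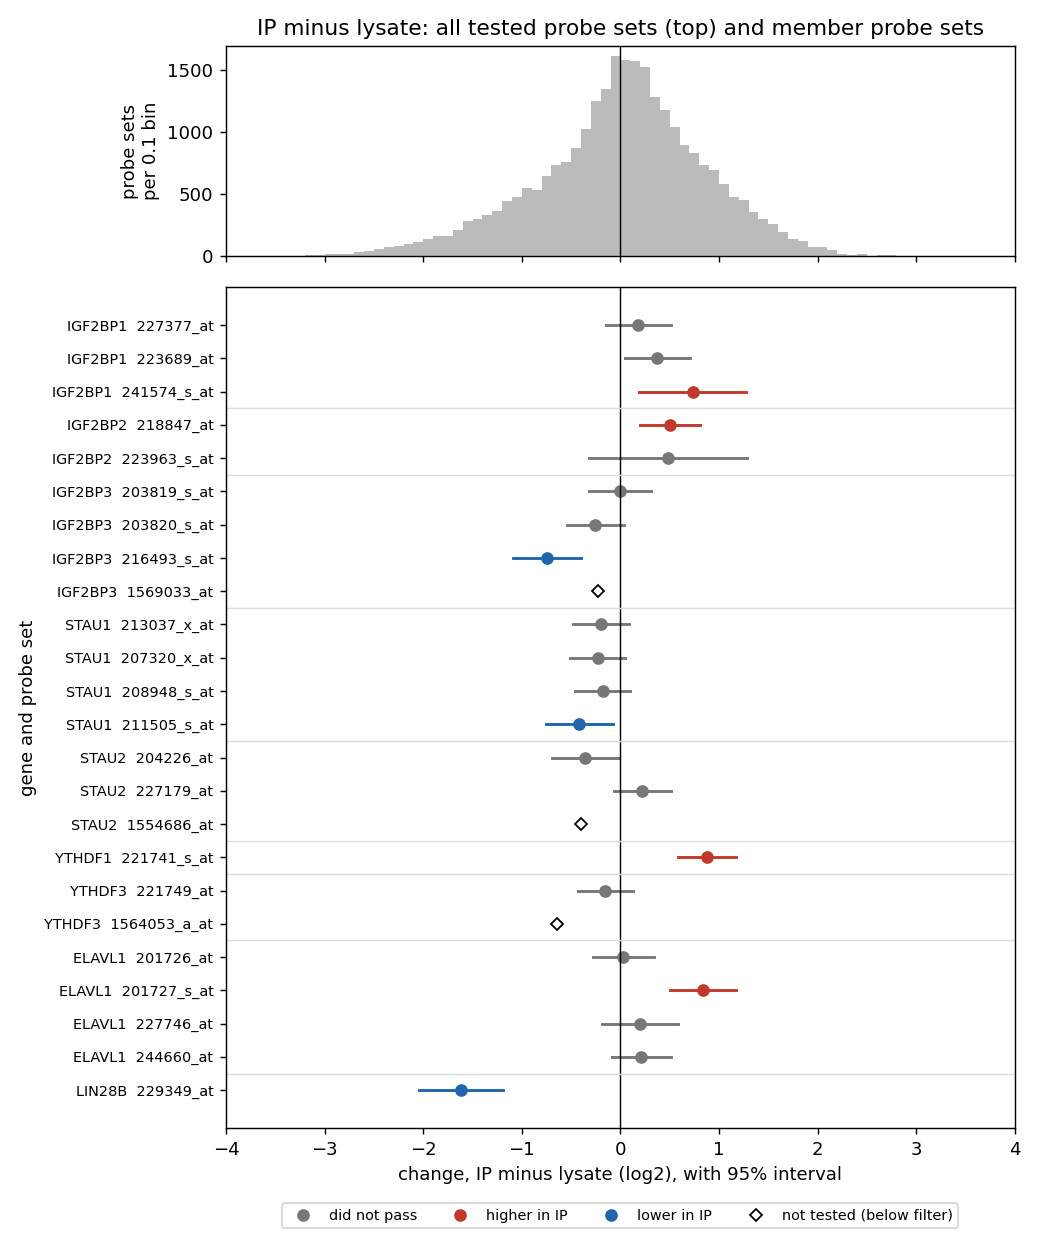
Change between IP and lysate (log2, horizontal axis) with its 95% interval for each member probe set, coloured by call, below a histogram of the changes of all 27281 tested probe sets. LIN28B at -1.61 lies in the left flank of the histogram, and YTHDF1 (0.88) and ELAVL1 probe set 201727_s_at (0.83) are the highest members.

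STAU1 had 4 tested probe sets, and on each of them both IP arrays lay below both lysate arrays by a small margin. The groups did not overlap, in 1 direction or the other, on 80.2% of all tested probe sets. Probe set 213037_x_at stood at 11.49 and 11.45 on the IP arrays, against 11.71 and 11.62 on the lysate arrays, a change of -0.20 (interval -0.48 to 0.08). The changes of 207320_x_at and 208948_s_at were -0.23 and -0.18, and none of these 3 passed (adjusted p = 0.135 to 0.228). Probe set 211505_s_at was lower in the IP, at 9.24 and 9.38 against 9.59 and 9.86 in the lysate, with a change of -0.42 (adjusted p = 0.0392). It did not pass without IP replicate 1 (-0.35) or without lysate replicate 2 (-0.28). With a variance that followed the signal intensity, 213037_x_at and 207320_x_at were called lower as well (adjusted p = 0.0420 and 0.0228). With an unmoderated variance only 208948_s_at of the 4 was called lower (adjusted p = 0.0478). Probe sets of 1 gene share its transcripts and are not replicates, and the 2 with the suffix x belong to a class that can cross-hybridize.

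STAU2, the paralog best known for carrying mRNAs into neuronal dendrites, had probe sets on opposite sides of 0. Probe set 204226_at stood at 6.67 and 6.55 on the IP arrays, against 7.11 and 6.82 on the lysate arrays, a change of -0.36 (adjusted p = 0.0687). Probe set 227179_at stood at 6.79 and 6.67 on the IP arrays, against 6.49 and 6.52 on the lysate arrays, a change of 0.22 (adjusted p = 0.157). Neither change passed, yet the IP arrays lay below the lysate arrays on the first and above them on the second. The difference between the 2 changes was 0.58 (interval 0.19 to 0.97, adjusted p = 0.0363). It did not pass without IP replicate 1, IP replicate 2 or lysate replicate 1, at 0.42 to 0.58. The third probe set, 1554686_at, was under the filter at 2.60 and 2.46 on the IP arrays and 2.93 and 2.94 on the lysate arrays. STAU1 minus STAU2, by probe sets 213037_x_at and 204226_at, was 0.16 (interval -0.19 to 0.51) and did not pass. The ratio of STAU1 to STAU2 probe set 227179_at, which changed in the other direction, was not tested.

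ELAVL1 had 4 tested probe sets with positive changes on the deposited scale, of which 1 passed. Probe set 201726_at, with the highest signal, stood at 11.29 and 11.42 on the IP arrays, against 11.23 and 11.41 on the lysate arrays. These groups overlapped almost completely, with a change of 0.03 (interval -0.28 to 0.34). Probe set 201727_s_at stood at 8.56 and 8.77 on the IP arrays, against 7.93 and 7.73 on the lysate arrays, 1.78-fold higher in the IP (change 0.83, interval 0.50 to 1.17, adjusted p = 0.00203). The other two changed by 0.20 and 0.21 and did not pass. Probe set 201727_s_at differed from 201726_at by 0.80 in its change (interval 0.38 to 1.23, adjusted p = 0.0180), which did not pass without IP replicate 2 (0.76) or lysate replicate 2 (0.61).

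Across the members, 3 of 12 differences between probe sets of 1 gene passed, in ELAVL1, IGF2BP3 and STAU2. That is 25%, where 35.1% of all 10359 such differences on the array passed. In IGF2BP3, 216493_s_at and 203819_s_at differed by -0.74 (adjusted p = 0.0287), which passed only without lysate replicate 1 among the 4 fits without 1 array. No member gene had probe sets called in opposite directions, as 4.77% of the 6246 genes with 2 or more tested probe sets did. Which transcript forms the probe sets read was not analysed here.

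**Figure D3:**
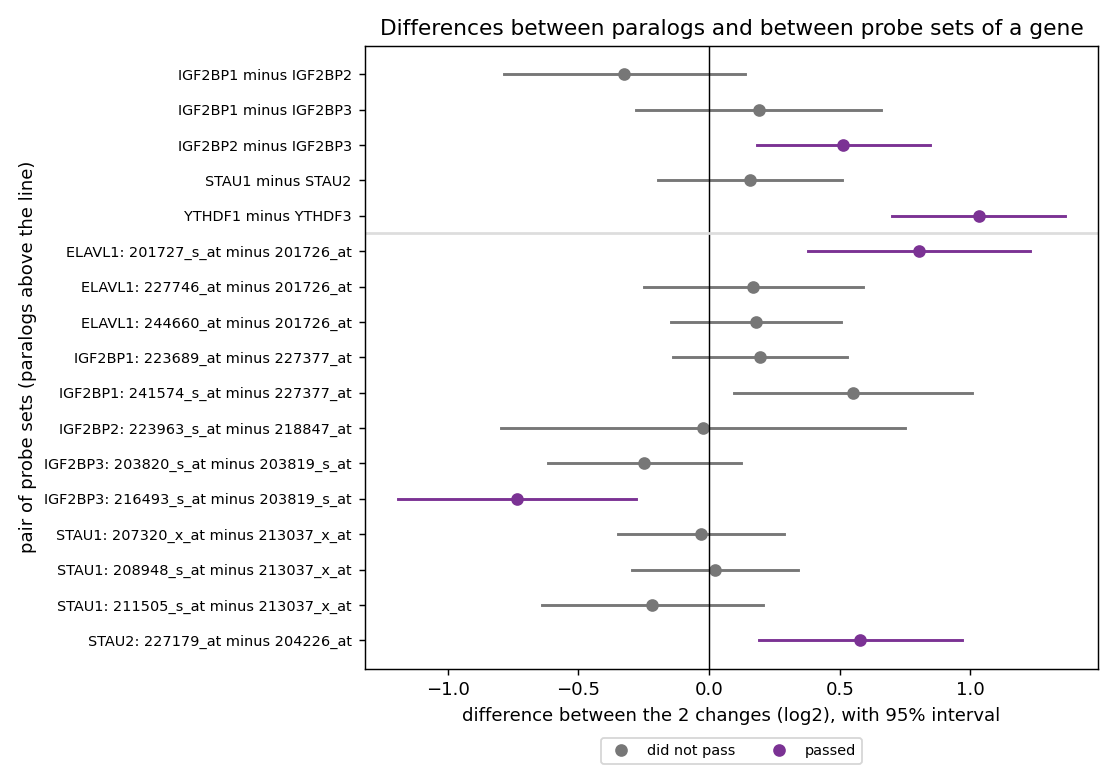
Difference between 2 changes (log2, horizontal axis) with its 95% interval, for 5 pairs of paralogs above the line and 12 pairs of probe sets of 1 gene below it. YTHDF1 minus YTHDF3 lies farthest from 0, at 1.03. Of paralog pairs 2 of 5 passed, and of pairs of 1 gene 3 of 12, beside 35.1% of all 10359 within-gene differences. Paralog pairs of other genes were not tested.

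All these changes are relative to the deposited scale. With each array centred on its hybridization controls (a log2 signal 0.48 higher in the IP), the median change of all tested probe sets moved to -0.42, with 13.8% of them higher and 48.3% lower. On that scale no member probe set was higher and 11 were lower. LIN28B changed by -2.09 there, and YTHDF1 by 0.40 (adjusted p = 0.0528), and none of the 4 rises, in YTHDF1, IGF2BP2, IGF2BP1 and ELAVL1, passed. ELAVL1 probe set 201726_at turned to -0.45 and was called lower. The 4 STAU1 probe sets, STAU2 204226_at, the 3 tested IGF2BP3 probe sets and YTHDF3 were the other lower ones beside LIN28B. Differences between 2 probe sets do not depend on this centring.

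The mRNAs of related genes changed in both directions. Of 64 genes in 5 lists, 56 were tested, each by its highest-mean probe set: 18 were higher, 15 lower and 23 did not pass (58.9% called, beside 61.7% of all 13157 genes). Their median change was -0.02, beside 0.08 over all genes. With hybridization control centring 9 were higher and 29 lower. Each list holds few genes, and whether any list departs from all genes was not tested.

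Of 8 tested genes of the m6A writer complex, which places the mark that YTHDF proteins read, 5 rose in the IP, 1 fell and 2 did not pass, with a median change of 0.45. The shares were 62.5% higher and 12.5% lower, beside 33.8% and 27.9% of all 13157 genes. RBM15B, an RNA-binding subunit, stood at 9.79 and 10.09 on the IP arrays, against 8.27 and 8.58 on the lysate arrays, 2.86-fold higher in the IP (adjusted p = 0.000310). A second RBM15B probe set changed by 2.15. CBLL1, the ubiquitin ligase subunit also called HAKAI, stood at 7.74 and 7.40 on the IP arrays, against 8.91 and 8.97 on the lysate arrays, a change of -1.37 (adjusted p = 0.000308). The 4 further higher genes, chosen once their values were known, were VIRMA (0.99), the catalytic subunit gene METTL3 (0.49), RBM15 (0.46) and METTL14 (0.44). The METTL3 and RBM15 calls were lost without lysate replicate 1 (0.42 and 0.46), and METTL14 without IP replicate 1 (0.41) or lysate replicate 2 (0.34). With hybridization control centring METTL3 stood at 0.0081, and RBM15 and METTL14 turned to -0.015 and -0.043. Other probe sets of RBM15 changed by -0.46 to 0.79 and those of METTL14 by -0.48 and 0.49. A second METTL3 probe set changed by 0.18 and a second VIRMA probe set by 0.68.

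Of 6 tested m6A erasers and other readers, 1 rose, 1 fell and 4 did not pass, with a median change of 0.08. That is 16.7% in each direction, beside 33.8% higher and 27.9% lower over all genes. PRRC2A, a proposed m6A reader, was higher at 11.29 and 11.38 on the IP arrays, against 9.87 and 10.08 on the lysate arrays (2.57-fold, adjusted p = 0.000207); its probe set can cross-hybridize, and 2 others changed by 1.25 and 1.29. HNRNPA2B1, a nuclear RNA-binding protein, was lower at 11.16 and 10.96 on the IP arrays, against 12.07 and 11.78 on the lysate arrays (change -0.87, adjusted p = 0.00232). Its 3 other tested probe sets changed by -0.73 to -0.10. Of the 4 that did not pass, named once values were known, YTHDC1 changed by 0.31 and its 2 other tested probe sets by 1.01 and 1.02. HNRNPC changed by -0.15 and its 5 others by -0.73 to -0.05. ALKBH5 changed by -0.07 and its 2 others by -0.57 and -0.22. FTO, with no other tested probe set, changed by 0.23. Of 16 tested genes for mRNA localization and transport, 2 were higher, 4 lower and 10 did not pass, with a median change of -0.14. This is 12.5% higher and 25% lower, where all genes gave 33.8% and 27.9%. MYO5A, an actin motor, was higher (change 0.91, adjusted p = 0.000775), and SYNCRIP, an RNA-binding protein of transport granules, was lower (change -1.47, adjusted p = 0.000219). The further called genes, chosen once their values were known, were KHDRBS1 (0.79), CPEB2 (-1.20), RBFOX2 (-0.51) and BICD1 (-0.51). RBFOX2 did not pass without IP replicate 2 (-0.36), lysate replicate 1 (-0.44) or lysate replicate 2 (-0.58), nor BICD1 without lysate replicate 1 (-0.46), and 4 other BICD1 probe sets changed by -0.05 to 0.99. KHDRBS1 did not pass with hybridization control centring (0.31).

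Of 16 tested genes for AU-rich element and other mRNA stability proteins, 4 were higher, 7 lower and 5 did not pass, with a median change of -0.40. In shares, 25% were higher and 43.8% lower, beside 33.8% and 27.9% of all genes. UPF1, the helicase of nonsense-mediated and Staufen-mediated decay, stood at 9.55 and 9.41 on the IP arrays, against 7.98 and 8.13 on the lysate arrays. It was 2.68-fold higher in the IP (adjusted p = 0.000168), and a second UPF1 probe set changed by 2.22. PCBP2, a poly(C)-binding protein, stood at 11.40 and 11.36 on the IP arrays, against 12.76 and 12.85 on the lysate arrays, a change of -1.43 (adjusted p = 0.000143). LARP4B (0.69), LARP1 (0.69) and YBX3 (0.45), chosen once their values were known, were also higher. Their other tested probe sets changed by 0.15 to 1.37 (LARP4B), 0.09 to 0.84 (LARP1) and 0.08 to 1.30 (YBX3). YBX3 did not pass without IP replicate 2 (0.40) or lysate replicate 1 (0.35), and turned to -0.033 with hybridization control centring, where LARP4B and LARP1 did not pass either (both 0.21). The further lower genes, also chosen once their values were known, included the AU-rich element decay factor genes ZFP36 (-0.95) and ZFP36L1 (-1.10) and the neuronal ELAVL1 paralog ELAVL2 (-0.86). A second ZFP36L1 probe set changed by -0.34 and a second ELAVL2 probe set by -0.77. YBX1 (-0.93) and LARP4 (-0.94), paralogs of YBX3 and LARP4B, and HNRNPAB (-0.89) were lower as well. With each of the 4 arrays left out in turn, these 6 and PCBP2 passed.

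Of 10 tested genes around LIN28 and let-7, 6 were higher, 2 lower and 2 did not pass, with a median change of 0.69. These shares of 60% and 20% stand beside 33.8% and 27.9% of all genes, whose median change was 0.08. IGF1R, a receptor kinase whose mRNA is a let-7 target, was 2.22-fold higher in the IP, at 9.90 and 9.97 against 8.74 and 8.84 in the lysate (adjusted p = 0.000281). The 5 further higher genes, chosen once their values were known, were the terminal uridylyltransferase genes TUT1 (1.14) and TUT7 (0.68), the exonuclease gene DIS3L2 (1.11), the microRNA processing enzyme gene DROSHA (0.93) and TRIM71 (0.71). The 2 genes that did not pass, named once their values were known, were the uridylyltransferase gene TUT4 (-0.17, adjusted p = 0.304) and MYCN (-0.20). TRIM71 had low signals, at 6.09 and 5.68 on the IP arrays against 5.17 and 5.19 on the lysate arrays. DIS3L2 stood at 6.89 and 7.06 against 5.59 and 6.14, and its 2 other tested probe sets changed by 0.41 and 2.18. TUT7 and TRIM71 did not pass with hybridization control centring (0.20 and 0.23). HMGA1, a chromatin architectural protein, stood at 9.39 and 9.16 on the IP arrays, against 10.80 and 11.10 on the lysate arrays, a change of -1.68 (adjusted p = 0.000180). The other lower gene, chosen once its values were known, was its relative HMGA2, a well-known let-7 target, at 8.30 and 8.10 on the IP arrays against 9.82 and 9.80 on the lysate arrays (change -1.61). Members of this list were thus called in both directions, and let-7 itself was not analysed here.

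**Figure D4:**
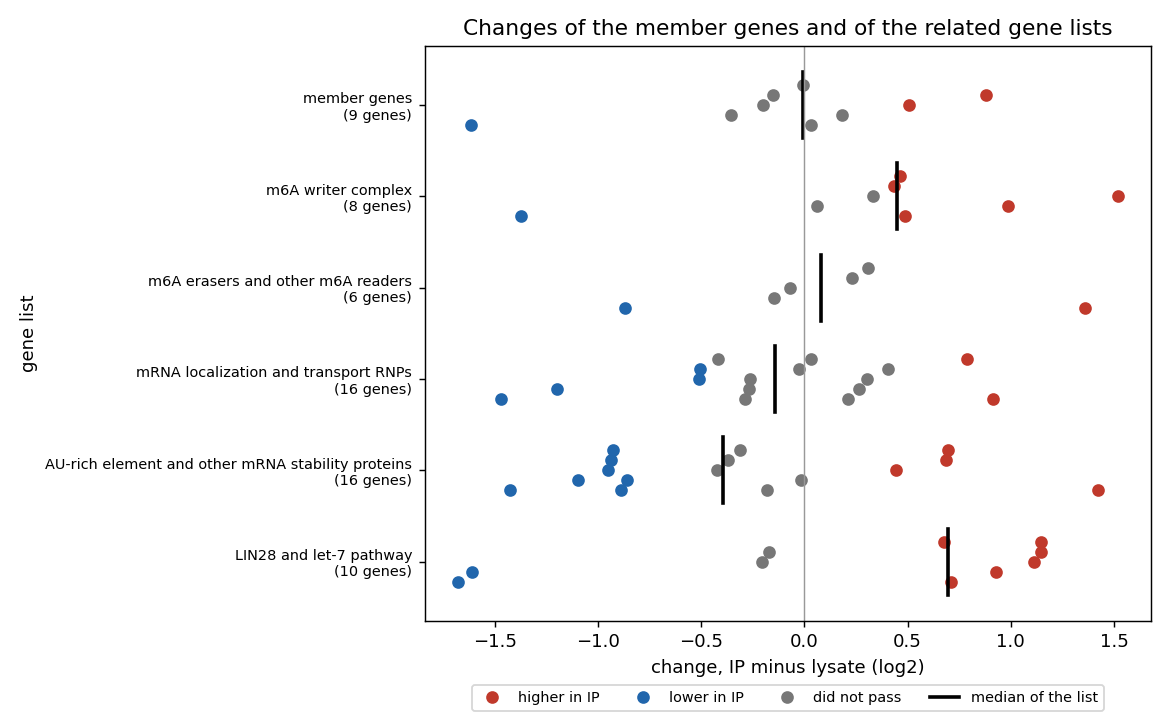
Change between IP and lysate (log2, horizontal axis) of the 9 member genes, each by its highest-mean probe set, and of the tested genes of 5 related lists, coloured by call, with list medians as black bars. Called genes lie on both sides of 0 in every list, and the medians run from -0.40 to 0.69.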

How the data were processed

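The authors' deposited values are log2 probe set signals; the log2 scale was read from their range, and the background correction, summary and normalization are not stated in these sources. Array medians were nearly equal. The number of arrays limits the precision. Control probe sets (62) were left out, and those with several symbols (1801) or none (11721) entered the fit unnamed. Names came from the platform annotation, updated by Entrez number (41037 of 41091 matched to GRCh38.p14). Of the list genes, 5 had no probe set of their own and 3 were below the filter.

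The change between IP and lysate was estimated by limma 3.58.1 under R 4.3.3 (no covariate, 2 residual and 4.82 prior degrees of freedom). The same fit was run on log2 ratios of each tested probe set over its gene's highest-mean one, with 5 paralog ratios added. Figures used matplotlib 3.10.9. The rule named the members, FMR1, and per list the called gene with the largest rise and the largest fall. Cell markers form a list of their own. Other list genes, called or not, were added once values were known, as said beside them. Members and lists were chosen with earlier results of these data known. Alternatives covered normalization, filter, variance, threshold, probe set choice, replicate block and leaving out each array.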

Additional observations from a re-analysis of the deposited data

How the results depend on the processing

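Quantile normalization kept every count within 1.5 times its main value, and every member probe set kept its call. With hybridization control centring 3764 probe sets were higher and 13171 lower, 9 list genes higher and 29 lower, 0 member probe sets higher and 11 lower, and 0 member genes higher and 6 lower. There ELAVL1 201726_at turned to -0.45, and RBM15, METTL14 and YBX3 to -0.015, -0.043 and -0.033. Requiring 2-fold left 3160 higher and 3466 lower probe sets, 6 and 7 list genes, 0 and 1 member probe sets, 0 member genes higher, 1 paralog difference and 0 within-gene differences. Unmoderated variance, with 2 residual degrees of freedom, gave 3914 and 3147 probe sets, 7 lower list genes, 1 and 1 member probe sets, 1 and 0 member genes, and 0 differences of either kind; the lower member there was STAU1 208948_s_at, and LIN28B did not pass (adjusted p = 0.0645). A threshold of 0.01 gave 2 higher member probe sets, 1 higher member gene, 1 paralog difference and 0 within-gene differences. Of all 27281 tested probe sets 6470 were higher at that threshold, beside 8597 in the main fit. No filter gave 2 higher member probe sets, 1 higher member gene and 1 difference of each kind, where 7939 of all 54613 probe sets were higher. An intensity trend gave 5 lower member probe sets and 2 lower member genes. Of all 27281 tested probe sets 7772 were lower with the trend, beside 7626 in the main fit. Lower member genes numbered 2 with a mean of at least 6 or with the mean of a gene's probe sets, and 1 member gene was higher with unique-class probe sets. With the replicate block 1 of 2 paralog differences stayed called, YTHDF1 against YTHDF3 (adjusted p = 0.00926). IGF2BP2 against IGF2BP3 did not pass there (adjusted p = 0.0527). The block moved no other count by over 1.5 times. Same-numbered samples' deviations correlated at 0.06, and the labels do not pair them. Leaving out each array gave 1 to 2 higher and 1 to 2 lower member genes, 3 to 4 higher and 2 to 3 lower member probe sets, 1 paralog difference and 0 to 2 within-gene differences. The causes of these shifts were not tested. No detection calls were used, so low signals have no known floor.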
